A study of Mus musculus with 6 samples.

Results

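Glycolysis splits glucose into pyruvate in the cytosol, lactate dehydrogenase interconverts pyruvate and lactate, the pyruvate dehydrogenase complex turns pyruvate into acetyl-CoA inside mitochondria, and the citric acid cycle oxidizes acetyl-CoA to carbon dioxide. In the kidney, proximal tubule cells carry many mitochondria and live mainly on fatty acids, lactate, and other organic acids, whereas the distal nephron and the medulla rely more on glycolysis. Here 38 enzyme genes of these routes were compared between kidneys of WT and Selenbp1-KO mice. The members were all probes whose gene name in the array files was one of 38 listed names, and no measured value enters that rule. All 38 genes were on the array, read by 95 probes of 60 bases out of 56605 non-control probes, and they make up 38 of the 37028 genes tested.

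The samples were left kidneys of male mice at an age of 8 weeks, after 20 h without food. The 3 WT mice (replicates 2, 3, and 4) and the 3 Selenbp1-KO mice (replicates 1, 2, and 3) were on a C57BL/6J background, and all 6 were fasted, so no fed kidney stands beside them. Each kidney was hybridized to its own one-color Agilent array. The C57BL/6J mice were bought from a breeder, the Selenbp1-KO line came from earlier work, and how its allele was made is not given in the sources used here. Levels are log2 signals relative to the 75th percentile of each array, and a difference is Selenbp1-KO minus WT. Because whole kidneys were used, fewer cells of a type and less RNA per cell cannot be told apart.

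The targeted gene matched the labels. The log2 level of Selenbp1 differed by −2.96, and by between −3.03 and −2.92 under all 19 alternative ways of processing. The 22 markers of proximal tubule, distal nephron, collecting duct, and glomerulus were well above background on all 6 arrays. The 75th percentile signal ran from 477 to 751 over the arrays, 51.8% to 55.5% of spots were well above background, and no spot was saturated. The arrays share 1 slide. A number in the array barcodes, read here as the side of the slide, was 1 for WT replicates 2 and 3. It was 2 for WT replicate 4 and all Selenbp1-KO replicates. The name slide side is inferred, since the sample labels do not give it. The median difference of all genes was 0.13, but 0.02 over genes well above background in a genotype and 0.0037 after quantile normalization. At an unadjusted p under 0.05, 4 of 5 markers of red blood cells and 3 of 6 of macrophages were higher in Selenbp1-KO kidneys. So were 7.14% of all genes tested, and 7.97% of those well above background in a genotype. Of the 22 kidney markers 2 were higher, about that share, Pvalb of the distal nephron (0.32) and Synpo of the glomerulus (0.29). No marker of neutrophils, skeletal muscle, or fat passed.

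Expression of the glycolytic and citric acid cycle genes differed little between the genotypes. By limma at an unadjusted p under 0.05, 1 of 38 genes was higher in Selenbp1-KO kidneys, Hk3, and none was lower, whereas 8.4% of all genes tested passed, 7.14% higher and 1.26% lower in Selenbp1-KO kidneys. In a fit of the genes well above background in a genotype alone, the shares were 11.2% in either direction and 7.97% higher, against 1 of the 37 members that met the same condition. At the level of probes, 1 of 95 passed, higher, against 7.98% of all probes in either direction and 6.47% higher. After Benjamini–Hochberg adjustment in limma none of the 38 passed, against 0.0054% of all genes, and the lowest adjusted p was 0.266. The differences ran from −0.17 for Aldoc to 0.48 for Hk3, with a median of 0.02, with 21 genes above 0 and 17 below. In 31 of 38 genes the difference was smaller than 0.1 on the log2 scale, which is 1.07-fold. The spread between mice was of the same size, with a median SD of 0.086 over the 3 WT arrays and 0.077 over the 3 Selenbp1-KO arrays. Relative to the median of all genes, 4 members lay above it (Hk1, Hk2, Hk3, and Gapdh) and 34 below, but relative to the median of genes well above background 20 lay above and 18 below.

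**Figure D1:**
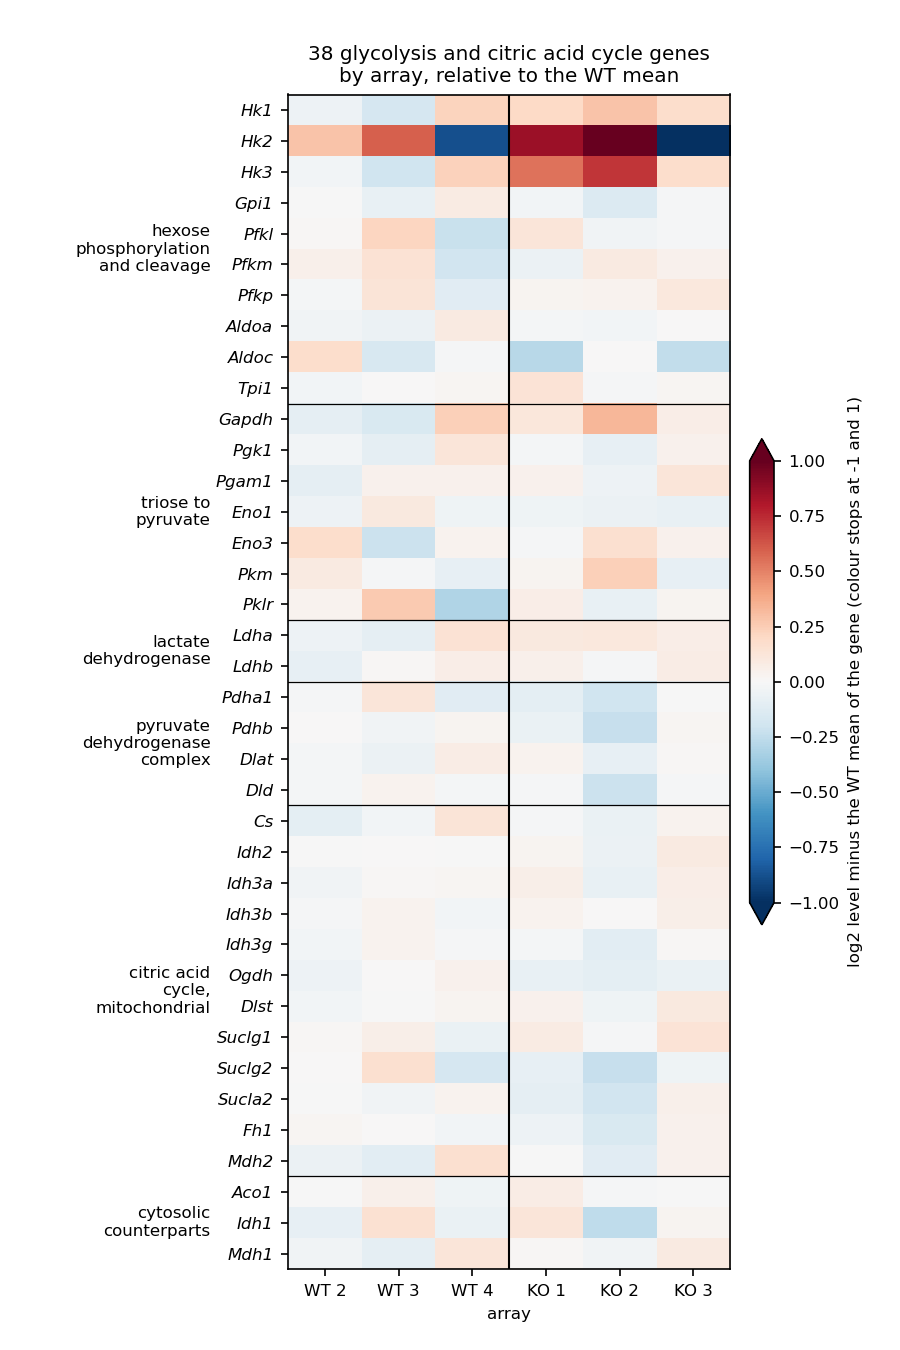
Color shows the log2 level of each of the 38 genes (rows, grouped by step) on each of the 6 arrays (columns, WT left of the line, Selenbp1-KO right) minus the gene's WT mean, with the color scale ending at −1 and 1. Most cells are pale; Hk2 and Hk3 vary most from array to array, and Selenbp1-KO replicate 2 is blue, that is below the WT mean, for most pyruvate dehydrogenase and cycle genes.

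The arrays bounded most of these differences tightly. The 95% interval of the difference lay within 0.5 on the log2 scale (1.41-fold) either way for 33 of 38 genes. Over all genes this held for 35.2%, and over those well above background in a genotype, in the same fit, for 67%. The 5 exceptions were Hk1, Hk2, Hk3, Aldoc, and Gapdh. The interval reached 0.25 to either side for the median gene, from 0.21 for the narrowest to 1.84 for Hk2. All 19 genes from the pyruvate dehydrogenase complex through the cycle and its cytosolic counterparts were within the bound, as were 14 of the 19 genes from hexokinase to lactate dehydrogenase.

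**Figure D2:**
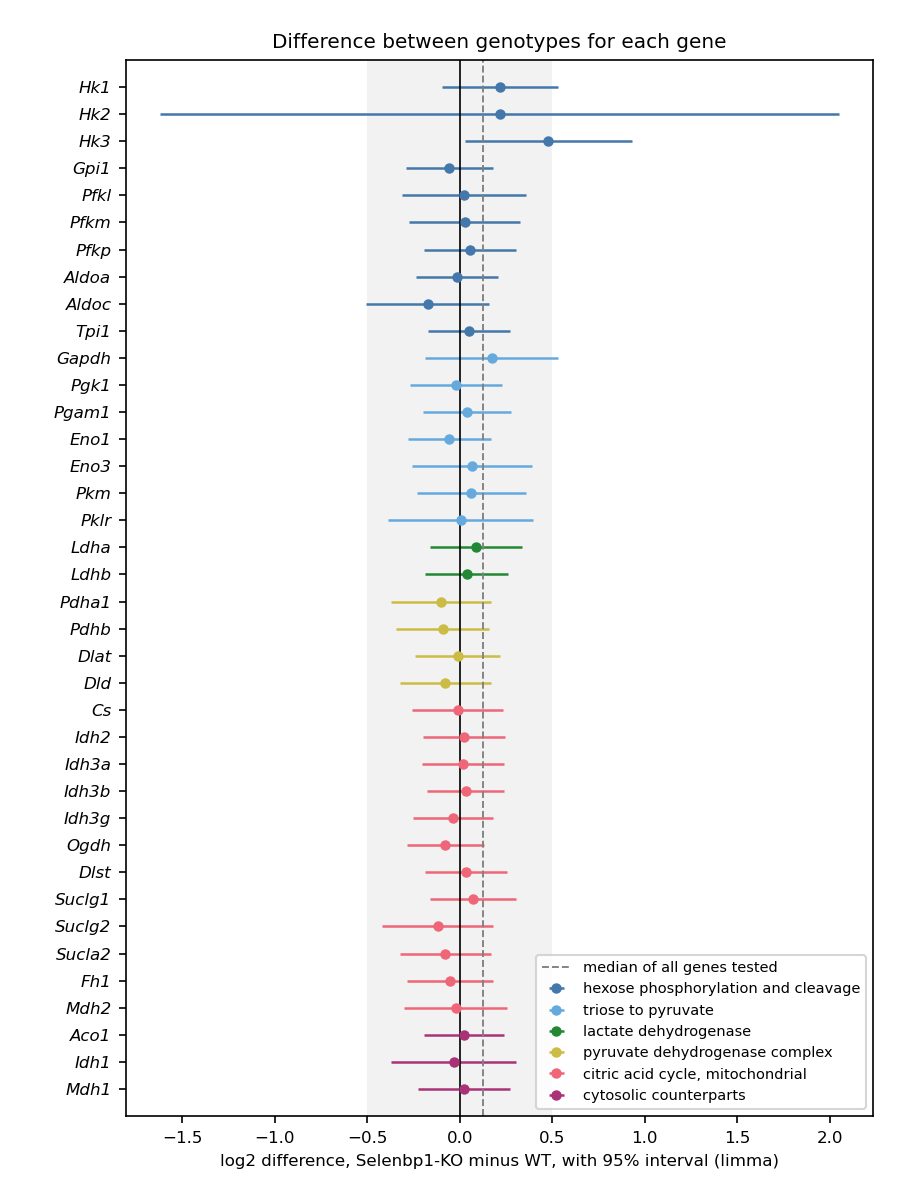
Points give the log2 difference (Selenbp1-KO minus WT, horizontal axis) of each gene and bars its 95% interval from limma, colored by step, with the dashed line at the median of all genes tested and the shaded band from −0.5 to 0.5. The interval of Hk3 alone leaves out 0, at 0.03 to 0.93, and that of Hk2 is the widest.

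Hexokinases phosphorylate glucose and so keep it in the cell, and Hk3 is the form known best from white blood cells of the myeloid line. Its brighter probe (NM_001033245, mm9 chr13:55107377-55107436, minus strand) read −3.82, −3.99, and −3.56 in WT replicates 2, 3, and 4. In Selenbp1-KO replicates 1, 2, and 3 it read −3.25, −3.08, and −3.61. The groups overlap, since Selenbp1-KO replicate 3 lies just below WT replicate 4. The probe was well above background on every array, but dim. The lowest signal well above background on an array ran from −5.40 (WT replicate 3) to −4.63 (Selenbp1-KO replicate 2). The difference was 0.48 with a standard error of 0.18, or 1.39-fold, and it passed in limma (unadjusted p = 0.0413) but not after adjustment (adjusted p = 0.266). Relative to the median of all genes it was 0.35. The call was lost without WT replicate 2 (0.46), WT replicate 3 (0.38), Selenbp1-KO replicate 1 (0.45), or Selenbp1-KO replicate 2 (0.36), and on entering slide side as a block (0.25), and the sign was the same under all 19 alternatives.

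A second Hk3 probe (mm9 chr13:55107900-55107959, minus strand) was not well above background on any array and has no fold here. The first 30 bases of both probes are shown because the call rests on 1 of them.
Hk3, brighter probe: tccccttatagccgtctgcccacacctaat
Hk3, second probe: aagatctggggctgactctgacatctgatg

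Macrophage markers stood higher on the same arrays. The summed linear level of the 6 markers ran from 10.1 to 11.7 in WT kidneys and from 12.0 to 13.1 in Selenbp1-KO kidneys. Most of that sum is Csf1r, the brightest of the 6, at a mean log2 level of 3.18 in WT and 3.35 in Selenbp1-KO kidneys. Csf1r was not called (difference 0.17), and its groups overlap. The median difference of the 6 markers was 0.36, and all 6 were well above background. C1qa (0.58), C1qb (0.51), and Cd68 (0.36) passed at an unadjusted p under 0.05 (adjusted p = 0.266 for each in limma). The 5 neutrophil markers summed to between 2.12 and 2.41 in WT and between 2.66 and 3.03 in Selenbp1-KO kidneys, with none called and with Ngp and Camp not well above background on any array. Most of that sum is Ly6g, at a mean log2 level of 0.94 in WT and 1.26 in Selenbp1-KO kidneys. The part of macrophages and neutrophils in the Hk3 signal was not tested.

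Hk1, the hexokinase of most tissues, was read by 2 bright probes that differ in sign. The brighter one (J05277, chromosome 10) read 6.36, 6.25, and 6.64 on the WT arrays, against 6.61, 6.70, and 6.59 on the Selenbp1-KO arrays. WT replicate 4 thus lies among the Selenbp1-KO arrays, and the difference of 0.22 (standard error 0.13, adjusted p = 0.375 in limma) went to −0.00 once slide side was entered as a block. It passed without WT replicate 4 (0.33) and with limma's trend and robust options. Without WT replicate 4, however, all WT arrays are on side 1 and all Selenbp1-KO arrays on side 2. Genotype and slide side then cannot be told apart, and 11965 of the 37028 genes tested were called. The other bright probe (NM_001146100, mm9 chr10:61731856-61731915, minus strand) read 3.37, 3.29, and 3.31 in WT and 3.10, 3.37, and 3.15 in Selenbp1-KO replicates, which is a difference of −0.12 (standard error 0.11). A stretch of 30 bases of each is shown because the 2 readings disagree, and capitals mark AATAAA, the canonical polyadenylation signal.
Hk1, J05277 probe, bases 12 to 41: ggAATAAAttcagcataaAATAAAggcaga
Hk1, NM_001146100 probe, bases 1 to 30: ggaatctcccatcgctttagtgagccattg

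Hk2, the insulin-responsive hexokinase of muscle and fat, was well above background on 2 of 3 arrays of each genotype. Its probe (NM_013820, mm9 chr6:82675056-82675115, minus strand) read −4.17, −3.86, and −5.34 in WT replicates 2, 3, and 4. In Selenbp1-KO replicates 1, 2, and 3 it read −3.60, −3.32, and −5.81. The lowest 2 values, WT replicate 4 and Selenbp1-KO replicate 3, were the arrays on which it was not well above background. The spread within each genotype (SD 0.78 and 1.36) exceeded the difference of 0.21 (standard error 0.75), and the sign changed in 4 of the 18 alternatives that gave it a value. Adipoq, the fat cell hormone adiponectin, was also lowest on those 2 arrays, at −0.62 and 0.19, and highest on Selenbp1-KO replicate 2, at 2.70. The 4 fat markers summed to between 12.1 and 47.3 in WT and between 21.4 and 118 in Selenbp1-KO kidneys, with none called. The part of attached fat in the Hk2 signal was not tested.

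**Figure D3:**
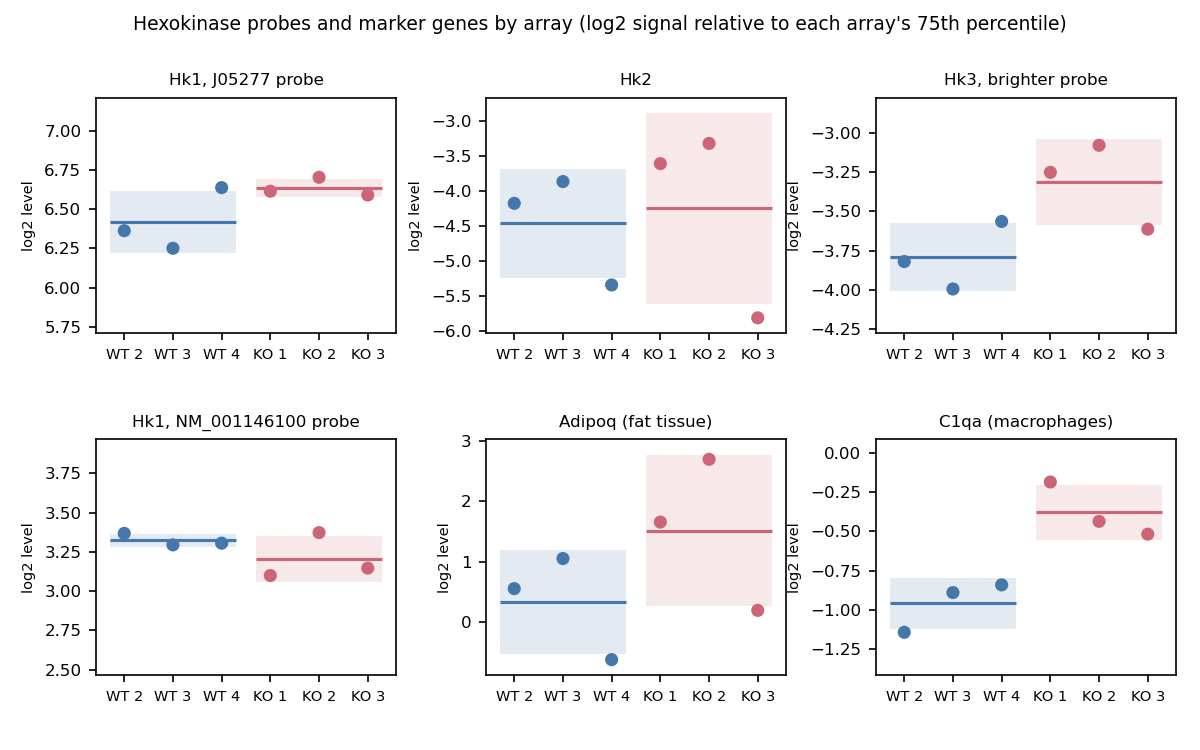
Each panel gives the log2 level relative to the array's 75th percentile for 1 probe on the 6 arrays (WT blue, Selenbp1-KO red), with a line at each group mean and a band of 1 SD either side, each panel having its own axis range. The J05277 probe of Hk1 puts WT replicate 4 level with the Selenbp1-KO arrays, Hk2 and Adipoq are lowest on WT replicate 4 and Selenbp1-KO replicate 3, and C1qa separates the genotypes where Hk3 does not.

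The remaining 7 genes from glucose 6-phosphate to triose phosphate differed by between −0.17 and 0.06, with none called and none without overlap. Aldoc, an aldolase known best from brain, had the largest of these differences. It read 3.51, 3.18, and 3.33 in WT and 3.06, 3.34, and 3.10 in Selenbp1-KO replicates, a difference of −0.17 (standard error 0.14). All 3 of its probes were lower on average in Selenbp1-KO kidneys, at −0.17, −0.12, and −0.11, and so they were under each of 5 scalings and background corrections. Gpi1, glucose 6-phosphate isomerase, differed by −0.06 and Pfkp, a subunit of phosphofructokinase, the main control step of glycolysis, by 0.06. The liver and muscle subunits Pfkl and Pfkm differed by 0.02 and 0.03.

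From triose phosphate to pyruvate, 7 genes differed by between −0.06 and 0.17 and none was called. Gapdh, which makes the first high-energy phosphate and is often used as a reference gene, was read by 7 probes, all well above background. Their differences ran from 0.01 to 0.17, and all 7 were above 0 with 75th percentile scaling but 1 of 7 with quantile normalization, where they ran from −0.12 to 0.00. That probe (BC083079, chromosome 6) read 8.04, 7.98, and 8.37 in WT and 8.24, 8.46, and 8.19 in Selenbp1-KO replicates, a difference of 0.17 (standard error 0.15). It was high in WT replicate 4 and Selenbp1-KO replicate 2, where the probe at mm9 chr6:125113312-125113371, on the minus strand, was not. That probe (NM_008084) read 4.81, 4.93, and 4.71 in WT and 4.80, 4.78, and 4.91 in Selenbp1-KO replicates. The brightest probe holds AATAAA followed by the start of a run of A at its end, and the NM_008084 probe just given holds no AATAAA. A stretch of each is therefore shown, with AATAAA in capitals.
Gapdh, BC083079 probe, bases 31 to 60: catcAATAAAgtttgctgcactccaaaaaa
Gapdh, NM_008084 probe, bases 1 to 30: ttgacctcaactacatggtctacatgttcc

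**Figure D4:**
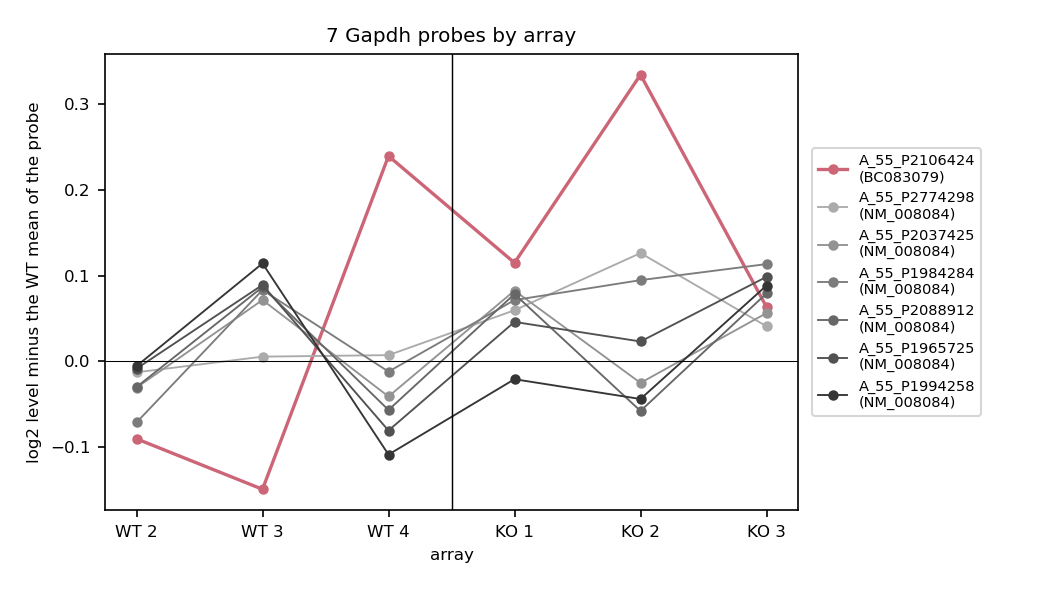
Lines give the log2 level of each of the 7 Gapdh probes on each array minus the probe's WT mean, with the BC083079 probe in red and the 6 NM_008084 probes in grays. The red line goes up at WT replicate 4 and Selenbp1-KO replicate 2, while the gray lines stay within about 0.13 of their WT means.

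AATAAA, searched on the probe's own strand, stood in 12 of the 77 member probes well above background on all arrays (15.6%), against 11.8% of all tested probes that met that condition. WT replicate 4 was above the mean of the other WT arrays in 7 of these 12 probes and in 27 of the other 65. The median of that within-WT difference was 0.09 with the motif and −0.02 without it, and over all tested probes well above background on all arrays 0.11 and 0.03, where WT replicate 4 was above in 2249 of 3163 and in 13149 of 23656. The median difference between genotypes was −0.04 and 0.01 for the member probes. What sets these probes apart was not tested.

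Of the other genes of this stretch, Eno3, the muscle enolase, differed by 0.06 (standard error 0.13) and Pkm, the pyruvate kinase of most tissues, by 0.06 (standard error 0.12). Pklr, the pyruvate kinase of liver and red blood cells, was looked at for its cell type after its values were seen. It read −1.96, −1.74, and −2.30 in WT and −1.93, −2.07, and −1.97 in Selenbp1-KO replicates, a difference of 0.01 (standard error 0.16). The red blood cell markers summed to between 292 and 387 in WT and between 423 and 647 in Selenbp1-KO kidneys. The interval of Pklr, from −0.39 to 0.40, leaves room for a difference of either sign.

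The lactate dehydrogenase subunits differed little. Ldha, the subunit that prevails in glycolytic tissue, read 7.32, 7.28, and 7.51 in WT and 7.47, 7.47, and 7.44 in Selenbp1-KO replicates, a difference of 0.09 (standard error 0.10). Ldhb, the subunit of heart and other oxidative tissue, differed by 0.04 (standard error 0.092). With quantile normalization both differences turned negative, to −0.09 and −0.10, and the one for Ldha then passed at an unadjusted p under 0.05.

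All 4 genes of the pyruvate dehydrogenase complex were lower on average in Selenbp1-KO kidneys, none by enough to be called. Pdha1, the catalytic alpha subunit, differed by −0.10 (standard error 0.11), Pdhb, its beta partner, by −0.09 (standard error 0.10), Dld, the shared dihydrolipoyl dehydrogenase, by −0.08 (standard error 0.10), and Dlat, the acetyl transferase, by −0.01 (standard error 0.093). Selenbp1-KO replicate 2 had the lowest value of all 6 arrays for each of the 4. Pdhb read 4.94, 4.90, and 4.96 in WT and 4.86, 4.70, and 4.95 in Selenbp1-KO replicates. Dld read 3.74, 3.79, and 3.74 in WT and 3.75, 3.55, and 3.75 in Selenbp1-KO replicates. Without Selenbp1-KO replicate 2 the median difference of the 4 genes went from −0.09 to −0.02, and Dlat turned positive.

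The 12 mitochondrial genes of the citric acid cycle differed by between −0.12 and 0.07, 5 above 0 and 7 below, with none called. The largest difference was that of Suclg2, the GTP-forming subunit of succinyl-CoA ligase, at −0.12 (standard error 0.12), and its ATP-forming counterpart Sucla2 differed by −0.08 (standard error 0.10). Suclg1, the subunit both enzymes share, differed by 0.07 (standard error 0.095). Cs, citrate synthase, which admits acetyl-CoA to the cycle, differed by −0.01 (standard error 0.10), and the 3 subunits of the NAD-dependent isocitrate dehydrogenase (Idh3a, Idh3b, and Idh3g) by between −0.04 and 0.03.

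Ogdh, the first enzyme of the 2-oxoglutarate dehydrogenase complex, was the 1 member of 38 whose groups did not overlap, against 14.1% of all genes, and against 3.87% of all genes with no overlap and lower in Selenbp1-KO kidneys. Its brightest probe (NM_001252287, mm9 chr11:6256583-6256642, plus strand) read 5.78, 5.84, and 5.87 in WT and 5.75, 5.73, and 5.76 in Selenbp1-KO replicates. Every Selenbp1-KO array was below every WT array, by a small margin. The difference was −0.08 (standard error 0.085, adjusted p = 0.661 in limma), and it passed at an unadjusted p under 0.05 with quantile normalization (−0.19) and in the authors' value table (−0.16). The neighboring probe of the same transcript differed by −0.01 (standard error 0.11) with overlapping groups. Dlst, the second enzyme of that complex, differed by 0.03 (standard error 0.090). The start of the brightest probe is shown because it is the only one of the Ogdh probes without overlap.
Ogdh, NM_001252287 probe, bases 1 to 30: gaaaaaagaacaaccacctttgcattgcat

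The cytosolic counterparts differed by between −0.03 and 0.02. Aco1, the cytosolic aconitase that also regulates iron, differed by 0.02, Mdh1, cytosolic malate dehydrogenase, by 0.02, and Idh1, which makes cytosolic NADPH, by −0.03. In each the SD of the arrays of a genotype exceeded the difference.

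Selenbp1-KO replicate 2 stood apart for the mitochondrial genes. It held the lowest value of the 6 arrays for 14 of the 19 genes of the pyruvate dehydrogenase complex, the cycle, and the cytosolic counterparts, and the highest for none. In the 19 genes from hexokinase to lactate dehydrogenase it was lowest for 1 and highest for 5. Over all genes well above background in a genotype, it was lowest for 19% and highest for 19.9%. The median difference of the 19 mitochondrial and cytosolic cycle genes was −0.02, with 7 above 0 and 12 below, and it went to 0.02, with 11 above and 8 below, without that array. The same array had the highest sum of fat markers (118) and of red blood cell markers (647), while its sum of proximal tubule markers, 710, was within the range of the WT arrays (656 to 780). The part of these cells in the pattern was not tested.

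The direction of these small differences depended on the scaling. With the 75th percentile 21 of 38 genes were above 0, and with quantile normalization 9 were above and 29 below, the median going from 0.02 to −0.07. All 19 genes of the pyruvate dehydrogenase complex, the cycle, and the cytosolic counterparts were below 0 with quantile normalization, with a median of −0.11, and so they were in the authors' value table, with a median of −0.09. That table too has the same distribution on every array, so it is no separate check on quantile normalization. With quantile normalization 6 members passed at an unadjusted p under 0.05, Hk3 higher and Ogdh, Aldoa, Ldha, Gpi1, and Pgk1 lower, against 9.2% of all genes, 5.29% higher and 3.91% lower. With the values the authors deposited as a table, Hk3 passed higher and Ogdh, Aldoa, Gpi1, and Pgk1 lower, against 9.19% of all genes, 5.44% higher and 3.75% lower. Over all genes the called ones divided into 2643 higher and 467 lower with the 75th percentile and into 1959 higher and 1449 lower with quantile normalization. The largest difference of a lower member under quantile normalization, that of Aldoc, was −0.20. Hk3 kept its sign, at 0.47 with quantile normalization and in the authors' value table, but fell to 0.30 with normexp, where it was not called.

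**Figure D5:**
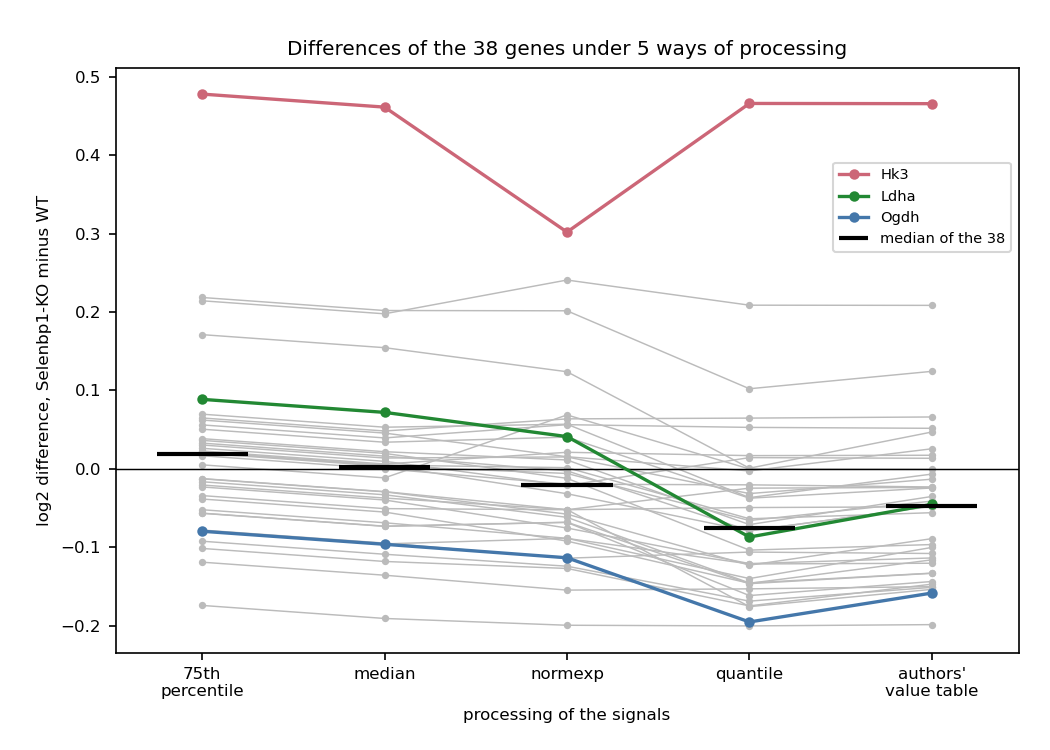
Lines join the log2 differences (Selenbp1-KO minus WT, vertical axis) of each of the 38 genes under 5 ways of processing the signals, with Hk3, Ldha, and Ogdh in color and black bars at the median of the 38 genes. The medians fall from 0.02 with the 75th percentile to −0.07 with quantile normalization, and Hk3 is the highest of the 38 under each.

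Of 60 further genes of these pathways, taken from a list of isoforms, control enzymes, carriers, shuttles, and regulators, 1 was called, higher, at an unadjusted p under 0.05. Of all genes tested 8.4% passed, 7.14% higher. The median difference was −0.03, with 26 genes above 0 and 34 below (18 and 42 with quantile normalization), and 5 genes were not well above background on any array. The gene called was Mpc2, a subunit of the carrier that brings pyruvate into mitochondria. It read 5.99, 6.10, and 6.20 in WT and 6.44, 6.28, and 6.35 in Selenbp1-KO replicates, so the groups did not overlap. The difference was 0.26 (standard error 0.10, unadjusted p = 0.0448, adjusted p = 0.266 in limma), and the call was kept in 10 of 19 alternatives. Leaving out any 1 array other than WT replicate 4 ended it, with differences from 0.21 to 0.30. Without WT replicate 4 the genotypes lie on different slide sides, so genotype and side cannot be told apart there. A second, dimmer Mpc2 probe for another transcript differed the other way, by −0.29. Mpc1, the partner subunit, differed by 0.17 (standard error 0.12). Groups did not overlap for 10 of the 60 genes, against 14.1% of all genes.

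By class, 18 other glycolytic enzymes had a median difference of −0.04, 10 genes of pyruvate entry and its control 0.04, 7 other enzymes of the cycle 0.11, 16 genes of anaplerosis and shuttles −0.04, and 9 regulators −0.14. Mpc2 was the 1 gene called in these 5 classes. Pdk4, the kinase that shuts the pyruvate dehydrogenase complex in fasting, differed by 0.08 (standard error 0.16). It was named for its role after its values were seen.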

How the data were processed

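Kidney RNA of 3 WT and 3 Selenbp1-KO mice was measured on 6 one-color arrays. The authors deposited Feature Extraction output (version 10.7.1.1 per the file headers, 9.5.1.1 per the submitters' processing notes) with intensities that are background-subtracted and detrended within an array but not scaled between arrays, and a p-value of each spot against its background. The authors' value table holds linear intensities with the same distribution on every array, as after quantile normalization. Results from it and from quantile normalization are therefore not independent. Its other processing steps are not given in the sources used here.

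From these, log2 signals minus the log2 of each array's 75th percentile were computed, spots flagged as outliers were left out, and spots of 1 probe were averaged. Following the methods, 56097 of 56605 probes were kept, those with a p against background under 0.05 on 1 array or more. That p does not require the signal to lie above background, so probes near the floor are among those tested. Genotypes were compared in R 4.3.3 by limma 3.58.1, with two-sided moderated tests from lmFit and eBayes, over probes and over 37028 genes by their brightest probe. Calls were made at an unadjusted p under 0.05, the criterion in the methods, with Benjamini–Hochberg values over all genes beside it. The number of arrays limits the precision, and p-values cover only the spread between these mice. Member probes carry the gene names of the files, and 66 of the 95 have an accession found in RefSeq (GRCm38.p6). Other probes were named from their RefSeq accessions, and from the files otherwise. Probe coordinates are those of the files (mm9), without exon annotation; 81 of 95 span 60 bases, 10 span more, and 4 span fewer, for which none are printed.

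Members and lists were chosen with earlier results of these data known. Values on every array are given for members called or without overlap between groups, and for some others, among them Hk1, whose bright probes disagree. The rest are given by range, with those of largest difference. In 15 members the probes differed in sign, probes near the floor included, and most of these members are given by their brightest probe alone. Dlst differed by 0.03 at that probe and by −0.26, −0.32, and −0.14 at its dimmer ones. Idh1 differed by −0.03 at that probe and by 0.15 at its dimmer one. Alternatives were normexp background correction (offset 50), quantile normalization, median scaling, the authors' table, 3 other filters, flagged spots kept, trend and robust options (statmod 1.5.0), the methods' t-test, slide side and replicate number as blocks, each array left out, and the mean of all probes. Simulated arrays in which 200 probes were changed were used to test the fit.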

Additional observations from a re-analysis of the deposited data

How the results depend on the processing

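Over 19 alternatives, Hk3 kept its sign and was under the threshold in 11. The call was lost with normexp (0.30), with a block on slide side, by the methods' t-test, and with the mean of all probes (0.37). The methods' t-test called Ogdh in its place, and 0 of the 38 genes after Benjamini–Hochberg adjustment. The number of the 38 genes called was 0 with normexp, 6 with quantile normalization, 5 with the authors' table, 2 with trend and robust options, 0 with a block on slide side, and 0 with the mean of all probes, and 0 to 2 when each array was left out. The share of all genes called was 9.2% with quantile normalization and 9.19% with the authors' table. Over the 19 alternatives the count of all genes called ran from 1359 to 12397, so counts of the 38 are not comparable between settings. The median difference of the 38 genes was −0.0202 with normexp, −0.0747 with quantile normalization, and −0.0474 with the authors' table. It was −0.0050 with the block on slide side, and −0.0138 to 0.0233 without each array. The difference of Ldha turned to −0.0867 with quantile normalization, and that of Mpc2 to −0.0137 with the mean of all probes. The cause of these changes was not tested.

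Of the 60 further genes, 8 were called with quantile normalization, against 9.2% of all genes, and 7 with the authors' table, against 9.19%. With median scaling 3 were called, against 9928 of all 37028 genes, and with trend and robust options 5, against 5113. The methods' t-test and the block on slide side called 3 each. When each array was left out 0 to 7 were called, against 1359 to 11965 of all genes. Over all 37028 genes the count was 3110, and 9928 with median scaling, 5113 with trend and robust options, and 1359 to 11965 when each array was left out (1359 without WT replicate 2, 1788 without WT replicate 3, 1878 without Selenbp1-KO replicate 2, and 11965 without WT replicate 4). It was of the order of 3110 in 12 of the 19 alternatives. These include normexp, quantile normalization, the authors' table, the methods' t-test, the block on slide side, and the mean of all probes.

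WT and Selenbp1-KO replicates share the numbers 2 and 3 only. The deviations of same-numbered arrays correlated at 0.17 and 0.19, against −0.33 to 0.19 for arrays of different numbers. The labels do not say that a number marks a shared litter or day, so the arrays were not treated as pairs. With a block on replicate number, 1 of the 38 genes, 2 of the 60, and 12397 of all genes were called, and the median of the 38 was 0.01. That fit rests on replicates 2 and 3 alone, because WT replicate 4 and Selenbp1-KO replicate 1 have numbers of their own. It leaves little with which to estimate the spread between mice. Signal over background limits Hk2 and the second Hk3 probe, and the called Hk3 probe, though well above background, is dim as well. The arrays of side 1 are all WT, so the block on slide side rests on WT replicate 4 alone.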
